A study of Homo sapiens with 15 samples.

Results

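The genes described here are 10 detoxification and NRF2 target genes, chosen by symbol from the platform annotation of the arrays, out of 12149 genes measured. They are the export pumps ABCC2 and ABCC3, the glutathione transferase GSTA4, the aldo-keto reductases AKR1B10, AKR1C1 and AKR1C3, the quinone reductase NQO1, the haem oxygenase HMOX1, the glutathione synthesis subunit GCLM and the thioredoxin reductase TXNRD1. All 10 had at least 1 probe set mapped to that gene alone, and all 10 passed the filter on low values. They were measured with Affymetrix arrays in HMT3522 human breast epithelial cells grown in 3-dimensional laminin-rich matrix. There were 9 samples of the malignant HMT3522 T4 line that the submitters call reverted (T4R here), 3 of HMT3522 T4 itself and 3 of the nonmalignant HMT3522 S1 line. Each T4R sample had another agent, namely GM6001 (an MMP inhibitor), the inhibitor labelled MMPs and ADAMs, TNF protease inhibitor–2, PD98059 (a MAPK pathway inhibitor), LY294002 (a PI3K inhibitor), dominant-negative Rap1, Tyrphostin AG 1478 and the antibody mAb225 (both against EGFR), or the antibody AIIB2 (against β1-integrin). The sources used here give neither doses nor times, and they do not say which samples, if any, received the vehicle that the series' design text mentions.

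NRF2, encoded by NFE2L2, is a transcription factor that KEAP1 holds in the cytoplasm for degradation until oxidants or electrophiles release it. It then pairs with small MAF proteins and binds antioxidant response elements near genes that make glutathione, reduce quinones and carbonyls, and pump conjugates out of the cell. Several of these genes also answer to other factors, among them steroid, bile acid and xenobiotic receptors, and ABCC2 protein sits at the apical membrane of polarised epithelia.

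Promoter windows are shown for ABCC2, GSTA4, TXNRD1 and GCLM. RefSeq's promoter table (build GRCh38.p14) held 9 windows for 7 of the 10 members, each from 250 bases before to 50 bases after a transcription start. The antioxidant response element core TGACNNNGC, searched on both strands and marked in capitals (GCNNNGTCA where it lies on the other strand), was in 4 of these 9 windows and in 13.3% of all 35116 windows of the table. GSTA4 held 1 match, starting 9 bases before the start. TXNRD1 held 2 in the window shown, starting 99 and 8 bases before the start, and 1 in its other window. GCLM held 1, starting 34 bases before the start, and the ABCC2 window held none. The windows of AKR1C1, AKR1C3 and NQO1, not shown, held none either, so 3 of the 7 members with a window held a match. Each sequence below is given on the gene's own strand, and a match is a description of the letters only.
ABCC2, chr10:99782390-99782689, + strand: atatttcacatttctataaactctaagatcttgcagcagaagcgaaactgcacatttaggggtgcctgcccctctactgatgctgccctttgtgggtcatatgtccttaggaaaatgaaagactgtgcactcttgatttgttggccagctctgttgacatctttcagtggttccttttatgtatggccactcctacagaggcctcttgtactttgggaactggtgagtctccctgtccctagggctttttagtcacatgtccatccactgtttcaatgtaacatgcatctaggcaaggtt
GSTA4, chr6:52995235-52995534, - strand: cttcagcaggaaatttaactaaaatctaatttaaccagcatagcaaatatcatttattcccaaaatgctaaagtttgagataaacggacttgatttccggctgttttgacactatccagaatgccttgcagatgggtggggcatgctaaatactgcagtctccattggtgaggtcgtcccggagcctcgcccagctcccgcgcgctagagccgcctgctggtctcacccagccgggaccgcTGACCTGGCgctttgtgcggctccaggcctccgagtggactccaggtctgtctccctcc
TXNRD1, chr12:104215529-104215828, + strand: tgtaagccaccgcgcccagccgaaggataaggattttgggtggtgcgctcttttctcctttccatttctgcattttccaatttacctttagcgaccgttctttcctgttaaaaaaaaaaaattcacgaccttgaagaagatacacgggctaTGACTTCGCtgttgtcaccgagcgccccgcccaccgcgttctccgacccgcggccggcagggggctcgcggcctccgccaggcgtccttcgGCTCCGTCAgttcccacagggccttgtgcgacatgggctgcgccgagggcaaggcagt
GCLM, chr1:93909381-93909680, - strand: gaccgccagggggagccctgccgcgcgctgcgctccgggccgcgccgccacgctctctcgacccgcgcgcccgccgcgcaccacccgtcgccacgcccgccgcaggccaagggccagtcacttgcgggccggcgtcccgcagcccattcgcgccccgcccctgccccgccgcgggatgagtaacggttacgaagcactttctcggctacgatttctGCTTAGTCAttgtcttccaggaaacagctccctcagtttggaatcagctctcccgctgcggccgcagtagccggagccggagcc

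The deposited values come as 2 tables for 2 array types. The first holds T4R samples with GM6001, the MMPs and ADAMs inhibitor and LY294002, all 3 T4 samples and S1 samples 1 and 2. The second holds the other 6 T4R samples and S1 sample 3. Values are log2 expression with sample medians of 7.33 to 7.40, and their precision is limited by how few arrays there are. Of 9 measured breast epithelial markers, 6, among them KRT5, KRT14 and CDH1, were above the upper quartile of every array, whereas KRT19 was below the median of every array. Of 14 markers of leukocytes, endothelium and stroma, 11 were below the median of every array, and COL1A1, DCN and CD14 were not. The mean level of these 14 was 7.10 to 7.35 in T4R, 7.14 to 7.18 in T4 and 7.03 to 7.05 in S1, and their part in the results was not tested. T4 sample 3 differed at least 2-fold from the mean of T4 samples 1 and 2 in 4.01% of 9112 genes tested, and S1 sample 3, measured on the second array type, did so from S1 samples 1 and 2 in 6.33%. In whole cultures, fewer cells of a type and less RNA per cell cannot be told apart. Differences below are log2 differences with their standard error from limma, fitted over all 15 samples with the table as a block, and a gene passed at a Benjamini-Hochberg adjusted p below 0.05 over all 9112 genes.

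**Figure D1:**
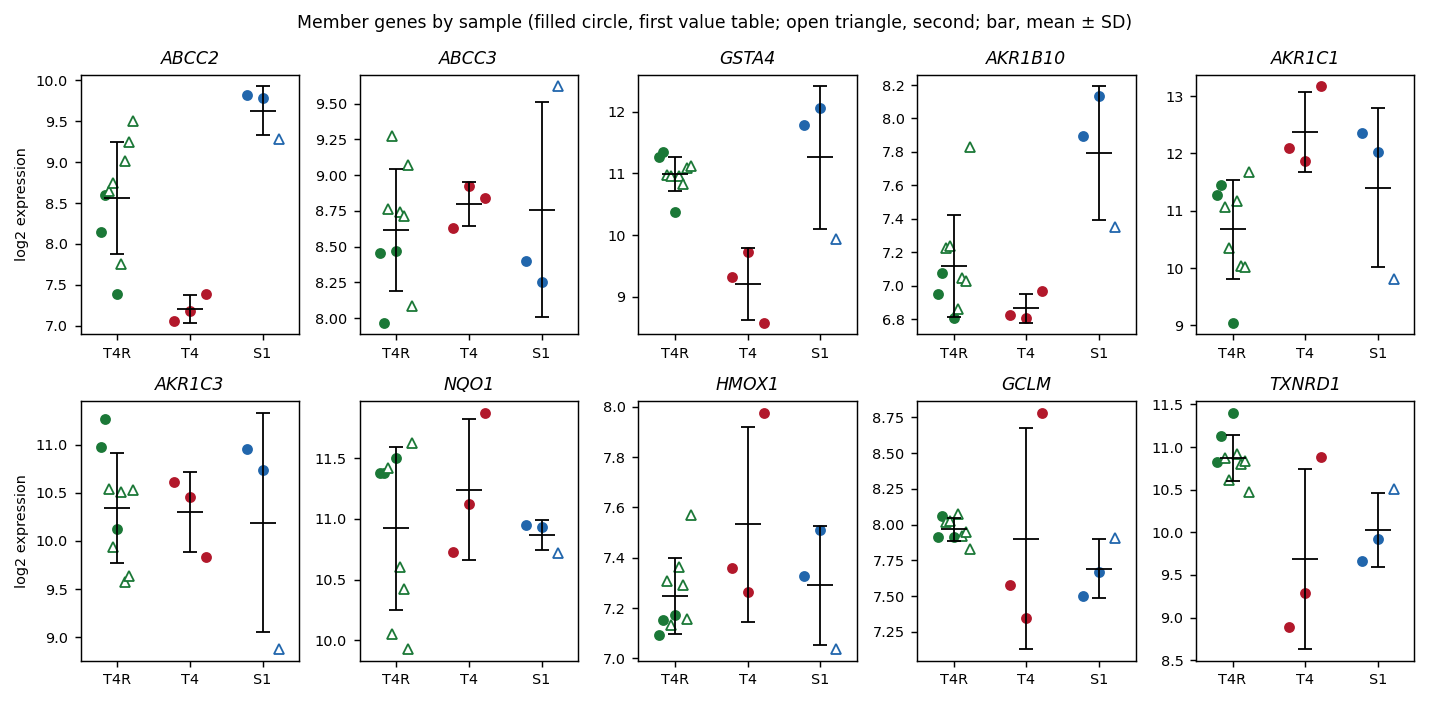
Log2 expression of the 10 member genes (y axis) in 9 T4R, 3 T4 and 3 S1 samples (x axis), with 1 point per sample, filled circles for the first value table, open triangles for the second, and the mean ± SD as bars. ABCC2 in T4 lay between 7.06 and 7.39, below every S1 sample, and GSTA4 in T4R lay between 10.38 and 11.34, above every T4 sample.

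ABCC2 and GSTA4 held the largest differences between the lines among the 10 members. ABCC2 moves glutathione, glucuronide and sulphate conjugates out of the cell. Its level was 7.06, 7.18 and 7.39 in T4 samples 1, 2 and 3, against 9.82, 9.78 and 9.29 in S1 samples 1, 2 and 3. The groups did not overlap. ABCC2 was 4.81-fold lower in T4 (log2 difference -2.27 ± 0.43, limma adjusted p = 0.00164). GSTA4, which conjugates aldehydes from lipid peroxidation to glutathione, stood at 9.33, 9.72 and 8.58 in T4 and at 11.79, 12.06 and 9.93 in S1. The lowest S1 sample, sample 3, was only slightly above the highest T4 sample. GSTA4 was 4.65-fold lower in T4 (-2.22 ± 0.42, adjusted p = 0.00159). AKR1B10, which reduces retinal and other aldehydes, was 6.82, 6.81 and 6.97 in T4 and 7.89, 8.13 and 7.35 in S1. The groups did not overlap, and AKR1B10 was 1.89-fold lower in T4 (-0.92 ± 0.24, adjusted p = 0.0127). The share of all genes tested whose groups did not overlap was not counted, for this comparison or those below. Lack of overlap is therefore only a description of the values. AKR1B10 was a dim gene, below the lower quartile of its array in 4 of the 15 samples and below the median in 12.

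In all, 3 of the 10 members passed in T4 against S1, all lower, where 26.9% of all genes tested passed, 14.6% as higher and 12.3% as lower. ABCC2 and GSTA4 passed whichever single sample was left out, with differences of -2.59 to -2.06 and -2.71 to -1.84. Within the first table, which holds 3 T4 and 2 S1 samples, the differences were -2.59 ± 0.31 for ABCC2, -2.71 ± 0.38 for GSTA4 and -1.15 ± 0.12 for AKR1B10. The second table holds no T4 sample. The AKR1B10 difference missed the threshold when S1 sample 1 (-0.85, adjusted p = 0.0549) or S1 sample 2 (-0.71, adjusted p = 0.0805) was omitted. The sample numbers pair T4 with S1 by the rule applied, but samples 1 and 2 correlated as strongly across numbers (0.29 and 0.31). With the replicate number as a block beside the table, the fit rests on pairs 1 and 2 and leaves little to estimate the spread from. In that fit 6 members passed, where 40.2% of all genes passed. These were the same 3, AKR1C3 (-0.31, adjusted p = 0.0418) and TXNRD1 (-0.70, adjusted p = 0.00129) as lower and ABCC3 (0.45, adjusted p = 0.0245) as higher.

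The other 7 members did not pass in T4 against S1. Their differences were 0.27 ± 0.27 for ABCC3, a basolateral export pump, 0.81 ± 0.73 for AKR1C1, which inactivates progesterone, and -0.22 ± 0.40 for AKR1C3, which forms androgens and prostaglandins. They were 0.17 ± 0.42 for NQO1, 0.25 ± 0.18 for HMOX1, 0.24 ± 0.27 for GCLM and -0.37 ± 0.41 for TXNRD1. The 95% intervals from the fit reached from -0.75 to 2.37 for AKR1C1 and from -1.25 to 0.51 for TXNRD1, so differences of 2-fold were not excluded for these genes. The median over the 10 members was -0.02, and that over all genes tested was 0.01.

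T4 sample 3 stood apart from the other T4 samples in some members, while ABCC2, AKR1B10 and ABCC3 differed there by 0.27, 0.15 and 0.06 on the log2 scale. TXNRD1, which recycles thioredoxin, was 10.88 in T4 sample 3 and 8.89 and 9.29 in T4 samples 1 and 2. GCLM, the regulatory subunit of the enzyme that starts glutathione synthesis, was 8.78 in that sample and 7.58 and 7.35 in the others, and its level there exceeded all other 14 samples. AKR1C1 was 13.17 against 12.09 and 11.87. These 3 members were at least 2-fold higher in T4 sample 3 than the mean of samples 1 and 2, by 3.47, 2.50 and 2.28 times, where 1.44% of genes tested were. NQO1 (11.88 in sample 3, against 10.73 and 11.12) and HMOX1 (7.98, against 7.36 and 7.26) were 1.93 and 1.59 times higher, while GSTA4 and AKR1C3 were lower there by 0.95 and 0.71 on the log2 scale. These are values of 1 sample, with no test.

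Among the 73 tested genes of the pathway lists, 3 were at least 2-fold higher and 4 at least 2-fold lower in T4 sample 3. Of all genes tested, 4.01% differed at least 2-fold in that sample, and 1.44% were at least 2-fold higher. The pathway genes are named here after their values were seen. The higher ones were ALDH1A3 (2.38 on the log2 scale), an aldehyde dehydrogenase that makes retinoic acid, the NADPH-forming malic enzyme ME1 (1.62) and AKR1C2 (1.02). The lower ones were MGST2 (-1.14), MAFF (-1.25), SULT1E1 (-1.64) and TXNIP (-2.56), the inhibitor of thioredoxin. Without T4 sample 3, the difference of TXNRD1 in T4 against S1 passed at -0.97 (adjusted p = 0.0209), and that of GCLM changed sign to -0.20 (adjusted p = 0.244).

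**Figure D2:**
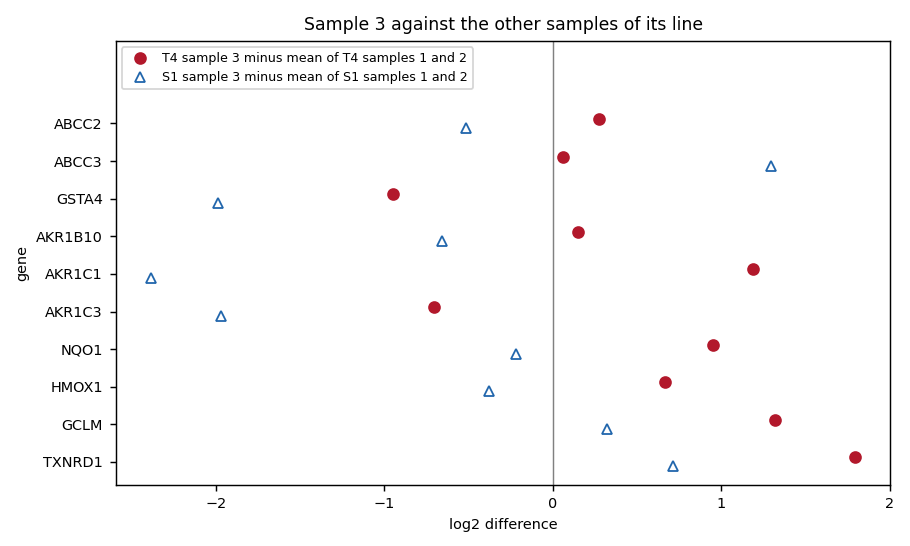
Log2 difference (x axis) of T4 sample 3 from the mean of T4 samples 1 and 2 (filled circles) and of S1 sample 3 from the mean of S1 samples 1 and 2 (open triangles) for the 10 member genes (y axis). TXNRD1, GCLM and AKR1C1 lay above 1 in T4 sample 3, and AKR1C1, GSTA4 and AKR1C3 were at -2.39, -1.99 and -1.97 in S1 sample 3, the single S1 sample of the second table.

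S1 sample 3, the single S1 sample of the second table, also stood apart. It was 9.81 in AKR1C1, against 12.36 and 12.03 in S1 samples 1 and 2, and 8.88 in AKR1C3, against 10.95 and 10.74. ABCC3 went the other way, at 9.62 in S1 sample 3 and 8.40 and 8.25 in samples 1 and 2. The table term of the fit passed the test for ABCC3 (0.68 ± 0.20 in the second table, adjusted p = 0.0322) and AKR1C3 (-0.99 ± 0.29, adjusted p = 0.0317). For GSTA4 it was -0.50 ± 0.30 and did not pass.

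With the reverting agents, GSTA4 rose, and each of the 9 samples showed it. It was 10.38 at the lowest (LY294002), 10.97 at the median and 11.34 at the highest (the MMPs and ADAMs inhibitor) in T4R, against 9.33, 9.72 and 8.58 in T4. Every T4R sample lay above every T4 sample. GSTA4 was 4.33-fold higher in T4R (2.11 ± 0.39, limma adjusted p = 0.00295), and within the first table, with 3 T4R and 3 T4 samples, it was higher by 1.78 ± 0.34 (adjusted p = 0.0151). It passed in each of the 15 fits without 1 sample, with differences of 1.78 to 2.48.

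TXNRD1 also rose. Its level was 10.47 at the lowest (AIIB2), 10.84 at the median and 11.40 at the highest (LY294002) in T4R, against 8.89, 9.29 and 10.88 in T4. All T4R samples were above T4 samples 1 and 2, and T4 sample 3 lay inside the T4R range. TXNRD1 was 2.38-fold higher in T4R (1.25 ± 0.38, adjusted p = 0.0408). The call was kept in 5 of the 15 fits that leave out 1 sample, and the adjusted p over all 15 reached from 0.000673 without T4 sample 3, where the difference was 1.85, to 0.172 without T4 sample 1, where it was 0.85. Without a filter on dim genes the adjusted p was 0.0555, and the first table by itself gave 1.43 (adjusted p = 0.0819).

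These were the 2 members that passed in T4R against T4, where 14.9% of all genes tested passed, 6.46% as higher and 8.44% as lower. The comparison shares its 3 T4 samples with that of T4 against S1. ABCC2 was 7.39 at the lowest (LY294002), 8.65 at the median and 9.50 at the highest (AIIB2) in T4R, against 7.06, 7.18 and 7.39 in T4. The T4R sample with LY294002 was level with T4 sample 3, and the other 8 T4R samples were above all T4 samples. The difference of 1.05 ± 0.40 missed the threshold (adjusted p = 0.0965). It passed without LY294002 (1.39, adjusted p = 0.0301), without dominant-negative Rap1 (1.08, adjusted p = 0.0459), with array weights (1.16, adjusted p = 0.00102) and with a random in place of a fixed table term (1.16, adjusted p = 0.0495). With quantile normalization across the tables in place of a table term, it also passed (1.36, adjusted p = 0.0185). It did not pass within the first table, which holds all T4 samples (0.84, adjusted p = 0.0830). Nor did it pass after quantile normalization within tables (1.06, adjusted p = 0.0942), and over the alternatives in processing the adjusted p reached 0.203. In the other 13 fits without 1 sample it did not pass either, and the adjusted p reached 0.214.

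**Figure D3:**
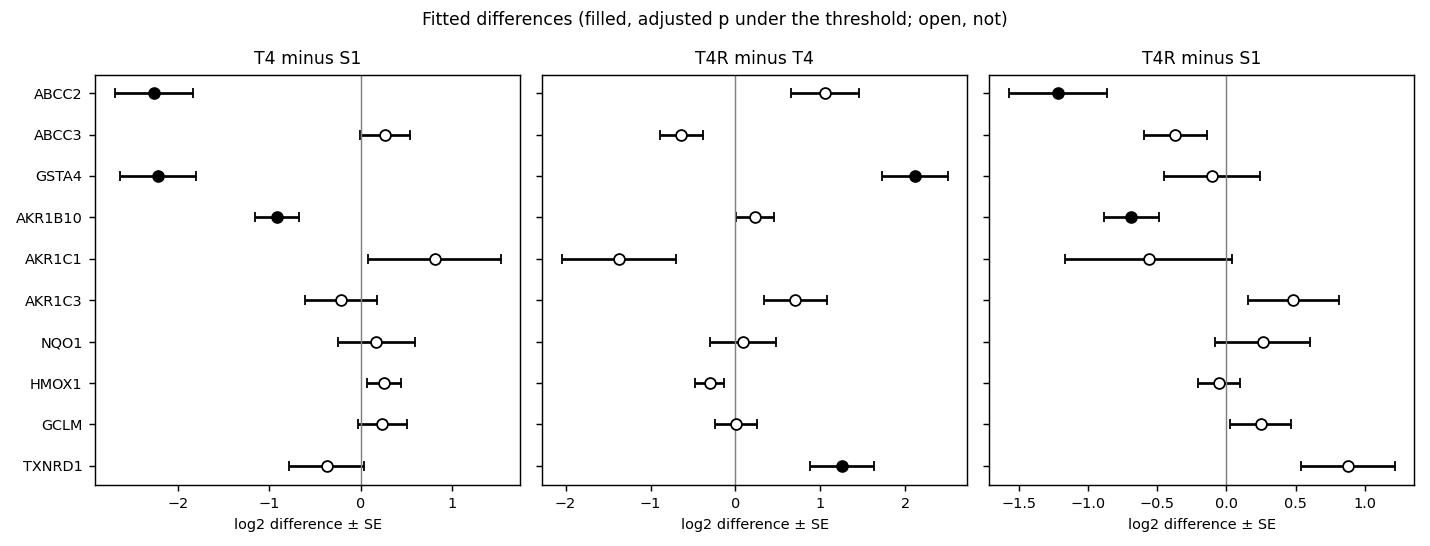
Fitted log2 differences ± SE (x axis) of the 10 member genes (y axis) for T4 minus S1, T4R minus T4 and T4R minus S1, with filled points where the adjusted p was below 0.05. ABCC2, GSTA4 and AKR1B10 were lower in T4 than in S1, GSTA4 and TXNRD1 were higher in T4R than in T4, and ABCC2 and AKR1B10 were lower in T4R than in S1.

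The reductases gave values in both directions in T4R against T4, none past the threshold. AKR1C1 was 9.05 at the lowest (LY294002), 11.07 at the median and 11.68 at the highest (AIIB2) in T4R, against 12.09, 11.87 and 13.17 in T4. All 9 T4R samples were below all T4 samples, but the second table, which holds no T4 sample, held 6 of them, and the fitted difference of -1.37 ± 0.68 did not pass (adjusted p = 0.204). Within the first table it was -1.79 ± 0.64 (adjusted p = 0.105), and without LY294002 it was -0.62 (adjusted p = 0.510). With quantile normalization across the tables in place of a table term, it passed at -1.69 (adjusted p = 0.0499). AKR1C2, a near-identical neighbour of AKR1C1 whose transcripts the AKR1C1 probe sets may also bind, had -0.86 ± 0.59. The other AKR1C1 probe set gave -1.14 ± 0.61.

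AKR1C3 was 9.57 at the lowest (Tyrphostin AG 1478), 10.50 at the median and 11.27 at the highest (the MMPs and ADAMs inhibitor) in T4R, against 10.62, 10.46 and 9.83 in T4. The T4 samples lay inside the T4R range, with a fitted difference of 0.70 ± 0.37 (adjusted p = 0.232). The difference of AKR1B10 was 0.23 ± 0.22. HMOX1, which breaks down haem, was 7.09 at the lowest, 7.17 at the median and 7.57 at the highest in T4R, against 7.36, 7.26 and 7.98 in T4, a difference of -0.30 ± 0.17 (adjusted p = 0.268). GCLM was between 7.83 and 8.07 in T4R, and its difference from T4 was 0.01 ± 0.25. Without T4 sample 3 that difference was 0.45 (adjusted p = 0.0199). ABCC3 was 7.97 at the lowest (the MMPs and ADAMs inhibitor), 8.71 at the median and 9.27 at the highest (PD98059) in T4R, against 8.63, 8.93 and 8.84 in T4. The groups overlapped, and the difference of -0.64 ± 0.25 (adjusted p = 0.113) passed without AIIB2 (-0.61, adjusted p = 0.0481). Its other probe sets gave -0.41 ± 0.16 and, for a dim one, -0.01 ± 0.04.

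For NQO1, which reduces quinones, the probe sets did not agree across agents. The probe set used in the fit, 210519_s_at, was 9.93 at the lowest (mAb225), 11.38 at the median and 11.62 at the highest (AIIB2) in T4R, against 10.73, 11.12 and 11.88 in T4. With PD98059, Tyrphostin AG 1478, mAb225 and dominant-negative Rap1 it was 10.05, 10.42, 9.93 and 10.60, all below the lowest T4 sample. These samples are in the second table and all T4 samples are in the first, and the table term of NQO1 was -0.61 ± 0.30. After its removal they stood at -0.58, -0.21, -0.70 and -0.02 from the T4 mean. Before that removal, 201467_s_at was likewise lowest in those among the T4R samples. In 201468_s_at the same samples were 10.94, 11.12, 10.93 and 10.35, against 9.84, 10.28 and 10.75 in T4, so that 3 of them were above every T4 sample. The fitted differences from T4 were 0.09 ± 0.39, 0.15 ± 0.34 and 0.64 ± 0.26 (adjusted p over all probe sets 0.943, 0.876 and 0.159) for 210519_s_at, 201467_s_at and 201468_s_at, in that order.

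**Figure D4:**
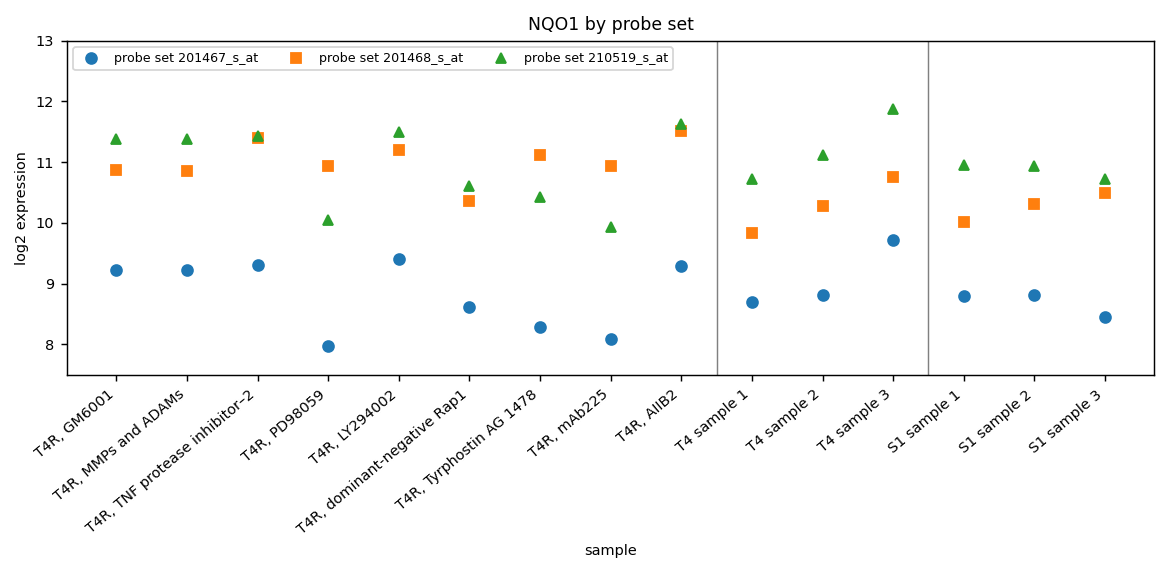
Log2 expression (y axis) of the 3 NQO1 probe sets in each of the 15 samples (x axis, T4R samples by agent, then T4, then S1). In the samples with PD98059, Tyrphostin AG 1478 and mAb225 the probe sets 210519_s_at and 201467_s_at were low, whereas 201468_s_at was between 10.93 and 11.12.

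Single agents have 1 sample each, so their differences from the T4 mean, taken after removal of the fitted table effect, are a description. For ABCC2 they were 1.84 with AIIB2, 1.58 with mAb225, 1.39 with the MMPs and ADAMs inhibitor and 1.35 with Tyrphostin AG 1478. PD98059 (1.09), TNF protease inhibitor–2 (0.99) and GM6001 (0.94) lay in the middle, and LY294002 (0.18) and dominant-negative Rap1 (0.10) were lowest. The value for dominant-negative Rap1 depends on the table term, which did not pass for ABCC2 (0.45 ± 0.31, adjusted p = 0.320). As deposited, ABCC2 with dominant-negative Rap1 was 7.76, above the highest T4 sample at 7.39. GSTA4 stood between 2.05 and 2.41 with 8 agents and at 1.17 with LY294002. For the 6 agents of the second table these values depend on a table term that did not pass (-0.50 ± 0.30, adjusted p = 0.257). As deposited, GSTA4 with those 6 was 10.82 to 11.12, against 8.58 to 9.72 in T4. TXNRD1 ran in another order, highest with LY294002 (1.72) and lowest with AIIB2 (0.88). AKR1C1 was lowest with LY294002 (-3.33), followed by mAb225 (-1.86), Tyrphostin AG 1478 (-1.84) and PD98059 (-1.54), and nearest to T4 with AIIB2 (-0.20). AIIB2 also had the highest values of AKR1B10 (0.93) and NQO1 (1.00) and the lowest of ABCC3 (-1.40). Those of NQO1 and ABCC3 depend on the table term. As deposited, NQO1 with AIIB2 was 11.62, below T4 sample 3 at 11.88. Deposited ABCC3 was lowest with the MMPs and ADAMs inhibitor (7.97), followed by AIIB2 (8.08).

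**Figure D5:**
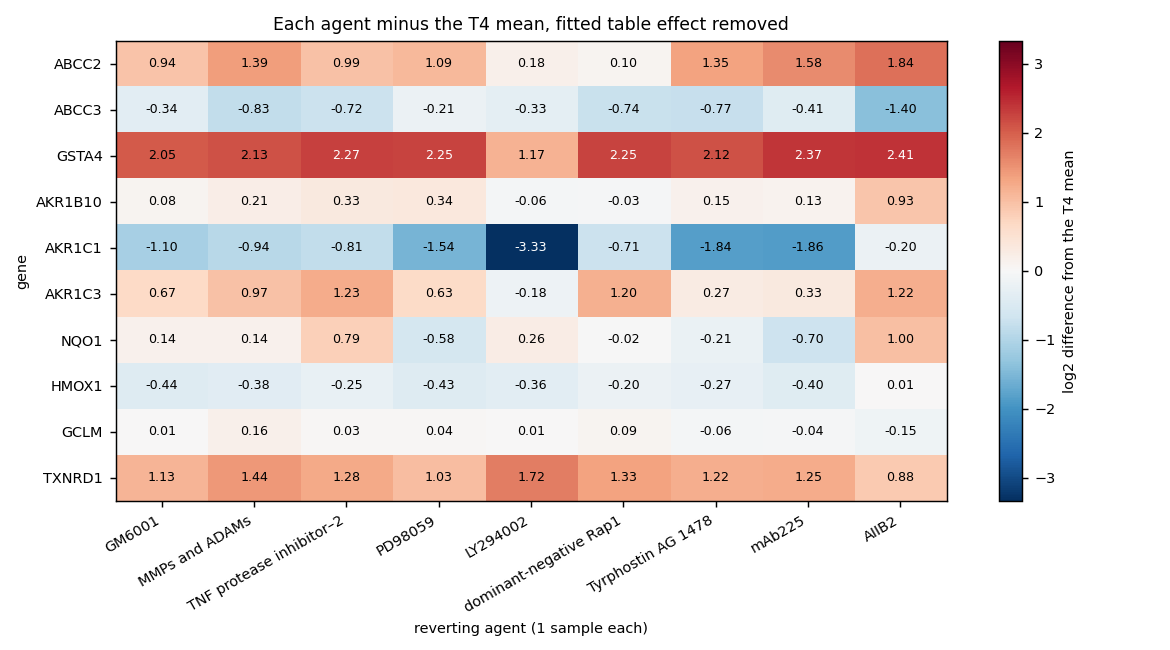
Log2 difference of each reverting agent (x axis, 1 sample each) from the T4 mean for the 10 member genes (y axis), after removal of the fitted table effect, with the value printed in each cell and red for higher and blue for lower. GSTA4 and TXNRD1 were higher than the T4 mean with every agent, although TXNRD1 in T4 sample 3 (10.88) lay inside the T4R range of 10.47 to 11.40. ABCC2 was lowest with LY294002 (0.18) and dominant-negative Rap1 (0.10, although its deposited level of 7.76 was above every T4 sample).

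With the agents grouped by target into 3 classes of 3, ABCC2 was higher than in T4 by 1.19 ± 0.30 with the protease inhibitors (limma adjusted p = 0.0283) and by 1.83 ± 0.38 with the EGFR and β1-integrin agents (adjusted p = 0.0197). With PD98059, LY294002 and dominant-negative Rap1 it stood at 0.62 ± 0.33 (adjusted p = 0.276), with 0.36 when PD98059 and 1.16 when LY294002 was left out. In these comparisons 10.8%, 6.16% and 9.04% of all genes tested passed, in that order. All EGFR and β1-integrin agents are in the second table and all T4 samples in the first. Their comparison with T4 therefore rests on the fitted table term, for ABCC2 and GSTA4 alike. GSTA4 passed in each class, at 2.18 ± 0.44, 2.38 ± 0.56 and 1.94 ± 0.49. The GSTA4 call with the EGFR and β1-integrin agents was lost in 9 of the 15 fits without 1 sample (adjusted p up to 0.0741), and that with PD98059, LY294002 and dominant-negative Rap1 without T4 sample 1, T4 sample 3, the MMPs and ADAMs inhibitor or PD98059 (up to 0.0757). The protease call of ABCC2 was lost without T4 sample 1 (adjusted p = 0.0847), T4 sample 2 (0.0644), GM6001 (0.0575), the MMPs and ADAMs inhibitor (0.140) or TNF protease inhibitor–2 (0.0651). The EGFR and β1-integrin call of ABCC2 was lost without T4 sample 1 (0.0515) or mAb225 (0.0542). The classes themselves were not shown to differ: limma's moderated F-test passed for 0 of 9112 genes after adjustment, a share of 0%. At an unadjusted p below 0.05 it passed for 496 of 9112, close to the number expected with no class difference. ABCC2 was the single member among those (adjusted p = 0.903).

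Against S1, ABCC2 stayed lower in T4R. Its T4R levels of 7.39 to 9.50 compare with 9.82, 9.78 and 9.29 in S1, and only AIIB2 was above an S1 sample. The difference was -1.22 ± 0.35 (adjusted p = 0.0239). AKR1B10 was 6.80 at the lowest, 7.04 at the median and 7.83 at the highest in T4R, against 7.89, 8.13 and 7.35 in S1, a difference of -0.69 ± 0.20 (adjusted p = 0.0239). These 2 of 10 members passed, where 23.2% of all genes tested passed, 11.8% as higher and 11.4% as lower. Both calls were lost without S1 sample 1 (adjusted p = 0.0972 for ABCC2 and 0.0834 for AKR1B10) or S1 sample 2 (0.0899 and 0.114), and that of AKR1B10 without GM6001 (0.0542) or LY294002 (0.0543). With quantile normalization across the tables in place of a table term, ABCC2 stood at -1.04 (adjusted p = 0.0543). In the first table alone ABCC2 stood at -1.75 (adjusted p = 0.00824) and AKR1B10 at -1.07 (adjusted p = 0.00160). In the second table, where S1 has 1 sample and no test is given, the mean of the 6 T4R samples differed from it by -0.47 for ABCC2 and -0.15 for AKR1B10.

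GSTA4 in T4R did not pass against S1, and its values lay below S1 in the first table and above the 1 S1 sample in the second. The pooled difference was -0.10 ± 0.35 with a 95% interval of -0.85 to 0.64. In the first table, T4R samples were 11.26, 11.34 and 10.38, against 11.79 and 12.06 in S1 (-0.93 ± 0.38, adjusted p = 0.135). In the second table, T4R samples lay between 10.82 and 11.12, against 9.93 in S1 sample 3. That is the single S1 sample there, and it was 1.99 below the mean of S1 samples 1 and 2 on the log2 scale, so no test is given for that table. With array weights the pooled value was -0.59 (adjusted p = 0.0293). TXNRD1 in T4R stood at 0.88 ± 0.34 over S1 (adjusted p = 0.0782) and passed without S1 sample 3 (1.33, adjusted p = 0.0430), T4 sample 1 (0.0493) or T4 sample 3 (0.00628). The differences of the other 6 members lay between -0.56 and 0.48, and none passed.

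The other genes of the pathway were taken from 7 lists of 92 genes, of which 73 were tested. In T4 against S1, 8 were higher and 14 lower (30.1% called, median -0.07). In T4R against T4, 13 were higher and 3 lower (21.9% called, median 0.14), and in T4R against S1, 12 were higher and 6 lower (24.7% called, median 0.01). Over all genes tested, 26.9%, 14.9% and 23.2% were called in these comparisons, and the medians were 0.0072, -0.0041 and 0.0043. The shares higher and lower were 14.6% and 12.3%, 6.46% and 8.44%, and 11.8% and 11.4%, in that order. The counts by list that follow stand against these shares.

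Of 9 tested regulators of the pathway, 3 were higher and 1 lower in T4 against S1, and 1 was higher and 1 lower in T4R against T4. MAFF, a small MAF partner of NRF2, was lower in T4R than in T4 (-2.26 ± 0.43, adjusted p = 0.00383), at a mean of 7.92 in T4R and 10.36 in T4. NFE2L1, a relative of NRF2 that controls proteasome genes, was lower in T4 than in S1 (-0.94 ± 0.09, adjusted p = 1.53e-05). BACH1, which represses NRF2 targets, was higher in T4 than in S1 (0.97 ± 0.23, adjusted p = 0.00701), but its most variable probe set gave 0.44 (adjusted p = 0.309), the mean of its probe sets 0.70 (0.0562) and a fit of T4 and S1 alone 0.90 (0.0976).

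Of 13 tested genes of glutathione supply and use, 2 were higher and 1 lower in T4 against S1, and 2 were higher and 1 lower in T4R against T4. GSR, which regenerates glutathione, was lower in T4 than in S1 (-0.86 ± 0.16, adjusted p = 0.00139) and higher in T4R than in T4 (1.39 ± 0.15, adjusted p = 5.79e-05). Its means were 9.45 in T4R, 8.04 in T4 and 8.91 in S1. Of 15 tested glutathione transferases, 5 were lower and none higher in T4 against S1, and 1 was higher and 1 lower in T4R against T4, the lower being GSTO1 (-0.94 ± 0.15, adjusted p = 0.00128). Of 8 thioredoxin and peroxiredoxin genes, 1 was lower in T4 against S1, namely PRDX3 (-0.64 ± 0.12), a mitochondrial peroxide reductase, and 2 were higher in T4R against T4.

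Of 15 tested oxidoreductases, 2 were higher and 4 lower in T4 against S1, and 4 were higher and none lower in T4R against T4. ALDH3A2, which oxidises fatty aldehydes, was lower in T4 than in S1 (-1.72 ± 0.30, adjusted p = 0.000952) and higher in T4R than in T4 (1.55 ± 0.28, adjusted p = 0.00246). The epoxide hydrolase EPHX1 was likewise lower in T4 (-1.57 ± 0.29, adjusted p = 0.00139) and higher in T4R (1.20 ± 0.27, adjusted p = 0.00944). CBR1, a carbonyl reductase, was higher in T4R than in T4 (1.16 ± 0.18, adjusted p = 0.000902), and its relative CBR3 was higher in T4 than in S1 (1.09 ± 0.25, adjusted p = 0.00593) and in T4R than in S1 (1.68 ± 0.21, adjusted p = 9.50e-05). Of 7 conjugation and export genes, SULT1E1, the oestrogen sulphotransferase, was the single one lower in T4 than in S1 (-2.57 ± 0.54, adjusted p = 0.00333, or 0.0572 with only T4 and S1 in the fit), and 2 were higher in T4R against T4. Of 6 haem and iron genes, 1 was higher and 1 lower in T4 against S1, the higher being the transferrin receptor TFRC (1.29 ± 0.23, adjusted p = 0.00120). Of the pathway genes that the rule for named genes picked, 10 of 16, 7 of 11 and 7 of 14 kept their call in every fit that left out 1 sample, for T4 against S1, T4R against T4 and T4R against S1. Apart from MAFF in T4 against S1, those with values in this and the preceding 2 paragraphs are among them. With the replicate number as the single block, CBR3 (adjusted p = 0.0553), SULT1E1 (0.0578) and PRDX3 (0.152) missed the threshold in T4 against S1.

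The genes whose profile lay closest to ABCC2 over the 15 samples were IRX5, ABHD5, CCDC51, RASL11B and ROR1. Likeness was the root mean square difference after removal of the table effect and centring of each gene, and it was 0.29 for IRX5 to 0.42 for ROR1, set against an SD of 0.90 of ABCC2 itself over the samples. IRX5 averaged 8.11 ± 0.33 in T4R, 7.37 ± 0.07 in T4 and 9.50 ± 0.44 in S1 (SD, n = 9, 3 and 3). Closest to GSTA4, whose SD was 1.01, were RETREG1, MAOA, H3C10, TSC2 and ASS1, at 0.35 for RETREG1 to 0.44 for ASS1. RETREG1 averaged 9.61 ± 0.39 in T4R, 7.84 ± 0.67 in T4 and 10.29 ± 0.81 in S1. These profiles share their samples and their tables, and the likeness is a description.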

How the data were processed

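Total RNA was extracted with Trizol, labelled with biotin and hybridised to Affymetrix arrays, per the labels' protocols. The authors' deposited values were taken as log2, from a range of 6.21 to 14.5. The labels do not state the authors' software, background correction or normalization, and no detection calls were used. Of 22215 probe sets, 19707 had 1 gene in the platform annotations, 614 several, 1706 none and 188 different genes in the 2 annotations. Symbols were updated through RefSeq's gene table for 19689. The probe set of highest mean stood for each gene, and the dimmest 25% of the 12149 genes were not tested. No member had a probe set annotated to several genes.

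Differences were tested with limma 3.58.1 in R 4.3.3 (lmFit and eBayes, 2-sided, Benjamini-Hochberg over 9112 genes, threshold 0.05), for the groups T4R, T4 and S1, with a fixed term for the table. A second fit split T4R into 3 classes of 3 agents, where the place of dominant-negative Rap1 rests on knowledge of the study. Whether the samples of 1 group are separate cultures is not stated; p-values then reflect only how these samples spread, which may be technical, and in T4R the spread includes 9 different agents. The deviations of S1 and T4 samples of the same number from their group means correlated at 0.28, 0.31 and 0.39 over 9112 genes, all above the 0.1 set for pairing, but samples 1 and 2 correlated as well across numbers (0.29 and 0.31). On simulated data the fit recovered 80%, 87% and 88% of 2-fold changes for T4 against S1, T4R against T4 and T4R against S1. Of the calls in these simulations, 5.82%, 5.58% and 5.58% were false. The simulated noise was independent between samples, and each change was the same in every sample of a group. The real samples share deviations and T4R holds 9 different agents, so these shares need not hold for the real data.

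Named genes were all members. Of the pathway lists, the rule picked up to 8 past the threshold in each direction and comparison, with the largest differences. Values are given for only some of those picked, chosen among calls kept in every fit that left out a sample. MAFF (1.66, limma adjusted p = 0.0173) and SLC7A11 (1.07, adjusted p = 0.0356) in T4 against S1 were picked but lost their call in some of these fits. ALDH1A3, ME1, MGST2, TXNIP and AKR1C2 were named outside this rule. For ABCC2 and GSTA4 the named genes also included the 5 genes of closest profile. The members and lists were chosen with earlier results of these data known.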

Additional observations from a re-analysis of the deposited data

Results flagged for a closer look

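In the group of 9 T4R samples, AKR1B10 with AIIB2 was flagged because this sample, at 7.83, lay far above the next (gap over range 0.574, above Dixon's critical value). The other T4R samples lay between 6.80 and 7.24, and AKR1B10 in S1 was 7.89, 8.13 and 7.35. About 1 in 20 groups is flagged by chance, and 10 members were examined.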

How the results depend on the processing

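The calls of ABCC2 and GSTA4 in T4 against S1 and of GSTA4 in T4R against T4 were kept under every alternative run for them. The alternative called no table block below put quantile normalization across the tables in place of the table term. Members called came to 1 for T4R against T4 without a filter, 4 with no table block, 1 in the first table alone and 5 with array weights, against 2 as reported. For T4R against S1 they were 1 with a stricter filter on dim genes, 1 with no table block, 6 with array weights, 5 without dominant-negative Rap1, T4 sample 3 and S1 sample 3, and 1 in the second table alone (an alternative chosen after seeing the data), against 2. With array weights, 39, 30 and 29 pathway genes were called in T4 against S1, T4R against T4 and T4R against S1. Of all 9112 genes, 4180, 3157 and 3854 were called there, against 2452, 1358 and 2116 as reported, so calls rose over all genes too. Over the alternatives run, genes called ranged from 1143 to 3157 in T4R against T4. The counts of members show how far their calls moved, not that members moved more than other genes. In the second table alone, where S1 has 1 sample whose spread cannot be estimated, 1165 genes were called for T4R against S1, and nothing rests on that count. With the replicate block beside the table, 6 members, 35 pathway genes and 3661 of all genes (40.2%, against 26.9% as reported) were called in T4 against S1, and with the replicate block alone 3 members and 1784 genes. No paired analysis was possible for the T4R comparisons because the T4R samples carry no numbers in the labels.

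Uncalled differences changed sign in these cases. In T4 against S1, with no table block, ABCC3 was -0.043 and AKR1C3 0.11 (0.11 also with the replicate block alone). With array weights AKR1C1, NQO1, HMOX1 and GCLM were -0.092, -0.055, -0.028 and -0.034, and with the replicate block beside the table, or without those 3 samples, -0.22, -0.015, -0.11 and -0.12. In T4R against T4, NQO1 was -0.25 with no table block and -0.065 with a random one, and PRDX2, a called pathway gene, was -0.070 through its most variable probe set. In T4R against S1, AKR1C3 was -0.058 in the first table alone and without those 3 samples, and the second table alone gave 0.91 for AKR1C1, -0.045 for NQO1, 0.27 for HMOX1 and 1.05 for GSTA4. The cause was not tested.

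Leaving out 1 sample at a time, members called ranged from 2 to 4, 1 to 3 and 0 to 3 in T4 against S1, T4R against T4 and T4R against S1, pathway genes from 14 to 25, 10 to 18 and 13 to 24, and all genes from 1687 to 2788, 948 to 1595 and 1584 to 2412. Those that changed sign ranged, in T4 against S1, from -0.55 to 0.038 for AKR1C3, -0.15 to 0.43 for NQO1, -0.20 to 0.51 for GCLM and -0.97 to 0.028 for TXNRD1. In T4R against T4 the range was -0.17 to 0.41 for NQO1 and -0.27 to 0.45 for GCLM. In T4R against S1 it was -0.058 to 0.72 for AKR1C3, -0.28 to 0.055 for HMOX1 and -0.93 to 0.19 for GSTA4. The dimness of AKR1B10 and HMOX1 and 1 sample per agent limit what these arrays can show.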
